A study of Drosophila melanogaster with 35 samples.

Results

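The minor amplicon genes of Drosophila follicle cells are 5 protein-coding genes at 3 loci. yellow-g and yellow-g2 lie at cytological band 62D on chromosome arm 3L, CG13113 and CG13114 at band 30B on 2L, and Vm34Ca at band 34B on 2L. They were chosen by name, and their data are the 31 windows, of 13391 in the genome, that overlap them in the dm6 (release 6) coordinates, with 200 kb on each side as local background. The measure is log2 S/G1, in which S phase reads are set against G1 reads in 100-kb windows that advance by 10 kb, and a higher value means earlier replication or more copies. There were 9 conditions with 2 S phase samples each, and the values are 1 mean per condition and window, so no value below has an SD, a replicate check or a p-value.

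Endocycling follicle cells, sorted between 4C and 8C DNA content, came from Rif1- (Rif1 1/Rif1 2, a null combination) and from wild-type (Oregon-R) adult females. Mitotic follicle cells, sorted between 2C and 4C, came from Rif1-, from Rif1PP1 (Rif1 PP1/Rif1 1, in which the PP1 binding motif of the remaining protein is mutated), from the heterozygote Rif1-/+ (Rif1 2/CyO) and from wild type. Wing discs of 3rd instar larvae, also 2C to 4C, came from Rif1-, Rif1PP1 and wild-type (Yellow-white) females. Ovarian follicle cells form the epithelium around the egg chamber, and the wing disc is a larval epithelium that makes no eggshell. The tissues also differed in strain, kit and sequencer, which cannot be told apart from tissue here. The study's methods name more than 1 sequencer for follicle cells and do not assign them to conditions. A difference between follicle cell conditions may therefore include a sequencer difference. By the study's methods G1 nuclei of wing discs were the copy number control of all samples, follicle cells included, but the genotype of the G1 sample set against each mutant is not clear from the labels. Copy differences between strains or tissues that do not depend on replication may therefore also enter a ratio. The 2C to 4C follicle cell fraction can hold some cells already in an endocycle, and each fraction averages cells of several stages, so a small gain in many cells and a large gain in few cannot be told apart.

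Late in oogenesis, after their endocycles, follicle cells amplify a few eggshell gene regions by firing the same origins again and again. The 2 chorion gene clusters, at 66D and 7F, are amplified most, and the loci described here were identified later as weaker amplicons. The study places the 4C to 8C fraction in an endocycle before the last, so neither sorted fraction was chosen for the amplification stage. Rif1 recruits the phosphatase PP1, which opposes origin activation, and in Drosophila it delays late replication and is needed for underreplication of heterochromatin in polyploid cells. yellow-g and yellow-g2 encode secreted proteins of the Yellow family that follicle cells make for the eggshell, and Vm34Ca encodes a structural protein of the vitelline membrane, the inner eggshell layer. CG13113 and CG13114 are known by their annotation numbers.

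yellow-g (CG5717) spans 2269881 to 2272769 on the minus strand of 3L in 3 exons, and yellow-g2 (CG13804) spans 2276550 to 2278038 on the plus strand in 2 exons, so that the pair is divergent across 3780 bp. CG13113 spans 9544171 to 9544875 of 2L in 1 exon and CG13114 spans 9545811 to 9547424 in 2 exons, both on the plus strand and 935 bp apart. Vm34Ca spans 13411141 to 13411631 of 2L on the minus strand in 1 exon. The windows over each locus also hold other genes, 30 annotated genes in all at 62D, 25 at 30B and 36 at 34B, members included. A window value is therefore not a value of 1 gene. Genes of a locus share all or nearly all of their windows, and the 5 genes give 3 separate measurements.

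The 200 bases before each annotated start are shown as the promoter sequence of each gene, which 100-kb windows cannot resolve. They were read 5′ to 3′ on the strand of the gene from the release 6 sequence. Capitals mark TATAAA, the core of the TATA box, and TCACGT, a hexamer known from chorion gene promoters, on either strand, where it reads ACGTGA on the other strand.
The yellow-g stretch is chr3L:2272770-2272969, minus strand.
yellow-g: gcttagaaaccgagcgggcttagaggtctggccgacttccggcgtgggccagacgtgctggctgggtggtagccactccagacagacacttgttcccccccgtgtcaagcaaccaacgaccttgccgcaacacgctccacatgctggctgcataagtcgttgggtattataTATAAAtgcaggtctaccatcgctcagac
The yellow-g2 stretch is chr3L:2276350-2276549, plus strand.
yellow-g2: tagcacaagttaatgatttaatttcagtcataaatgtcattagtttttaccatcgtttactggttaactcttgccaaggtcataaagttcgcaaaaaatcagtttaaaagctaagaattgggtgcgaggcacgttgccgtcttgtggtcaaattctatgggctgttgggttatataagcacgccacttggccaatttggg
The CG13113 stretch is chr2L:9543971-9544170, plus strand.
CG13113: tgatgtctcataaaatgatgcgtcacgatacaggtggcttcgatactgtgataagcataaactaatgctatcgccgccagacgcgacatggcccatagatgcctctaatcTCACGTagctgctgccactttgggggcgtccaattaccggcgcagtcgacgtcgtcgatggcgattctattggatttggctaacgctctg
The CG13114 stretch is chr2L:9545611-9545810, plus strand.
CG13114: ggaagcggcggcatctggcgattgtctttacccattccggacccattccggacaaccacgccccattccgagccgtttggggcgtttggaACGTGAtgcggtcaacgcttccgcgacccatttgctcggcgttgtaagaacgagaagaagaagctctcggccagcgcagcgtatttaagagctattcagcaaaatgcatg
The Vm34Ca stretch is chr2L:13411632-13411831, minus strand.
Vm34Ca: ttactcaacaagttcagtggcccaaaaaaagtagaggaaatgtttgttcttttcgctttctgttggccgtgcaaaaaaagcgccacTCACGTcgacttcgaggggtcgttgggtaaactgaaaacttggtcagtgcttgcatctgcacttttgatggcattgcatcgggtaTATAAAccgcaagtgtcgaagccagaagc
TATAAA began 29 bases before the start of yellow-g and of Vm34Ca. TCACGT began 90 bases before the start of CG13113 and 114 bases before that of Vm34Ca, and its complement began 110 bases before CG13114. Over the same 200 bases of 17415 annotated genes, 35.5% held TATAAA and 3.92% held TCACGT on either strand, and the 2 motifs share no overlapping letters in these stretches. A match is a description of the letters and not a site, and the stretch before yellow-g2 held neither string.

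At 34B, around Vm34Ca, follicle cells had the highest ratios of the 3 loci. Over its 10 windows the mean log2 S/G1 was 0.29 in Rif1- and 0.20 in wild-type endocycling cells. In mitotic follicle cells it was 0.12 in Rif1-, 0.19 in Rif1PP1, 0.19 in Rif1-/+ and 0.12 in wild type. In wing discs it was -0.046 in Rif1-, -0.0095 in Rif1PP1 and -0.038 in wild type. Every follicle cell value at 34B lay above every wing disc value, and both endocycling values lay above the mitotic value of the same genotype.

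At 30B, around CG13113 and CG13114, the order was the same for endocycling cells but the spread over conditions was smaller than at 34B. The mean log2 S/G1 of the 10 windows was 0.17 in Rif1- and 0.14 in wild-type endocycling cells. It was 0.09, 0.078, 0.096 and 0.072 in Rif1-, Rif1PP1, Rif1-/+ and wild-type mitotic follicle cells. It was 0.022 in Rif1-, 0.021 in Rif1PP1 and 0.067 in wild-type wing discs. Mitotic follicle cells and wing discs of wild type were thus close at 30B, unlike at 34B.

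At 62D, around yellow-g and yellow-g2, ratios were above 0 only in endocycling cells. The mean log2 S/G1 of the 11 windows was 0.13 in Rif1- and 0.042 in wild-type endocycling cells. It was -0.031, -0.043, -0.10 and -0.022 in Rif1-, Rif1PP1, Rif1-/+ and wild-type mitotic follicle cells. It was -0.049 in Rif1-, -0.042 in Rif1PP1 and -0.10 in wild-type wing discs. The values of yellow-g and yellow-g2, counted on their own windows, were nearly the same as these because they share 10 windows.

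**Figure D1:**
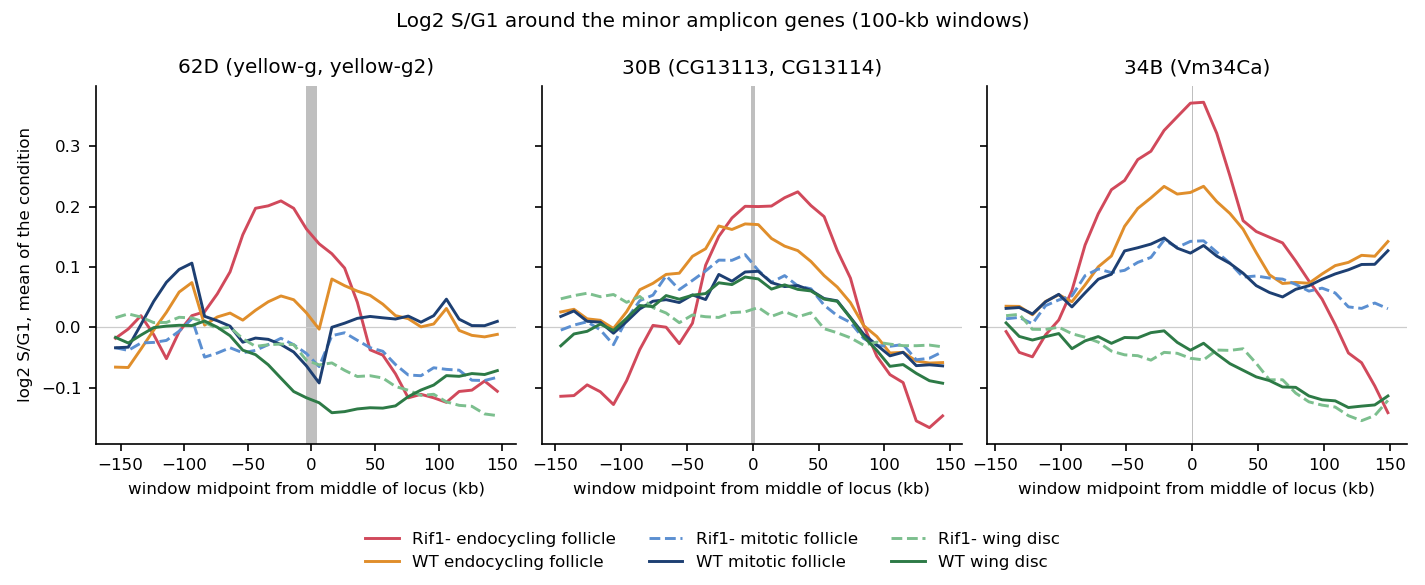
Log2 S/G1 of each 100-kb window against the distance of its midpoint from the middle of the locus in kb, for 62D, 30B and 34B, in Rif1- and wild-type endocycling follicle cells, mitotic follicle cells and wing discs (1 line per condition mean, grey band the gene span). Rif1- endocycling cells have a broad maximum at every locus, with the highest window over the genes at 0.21 at 62D, 0.22 at 30B and 0.37 at 34B, and the wild-type endocycling line has maxima at 30B and 34B.

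To separate a locus from the level of its surroundings, a local excess was taken as the mean over the gene windows less the median of the 20 windows within 200 kb that touch no member gene. The same measure was taken at 11345 positions every 10 kb along the chromosome arms, as a background. In wild-type endocycling cells the local excess, in log2, was 0.12 at 30B, 0.12 at 34B and 0.038 at 62D, or 1.09, 1.09 and 1.03 times the flanks. Of arm positions, 2.78%, 3.06% and 23.4% had a higher excess than 30B, 34B and 62D. So 2 of 3 loci were over 0.1, a size reached by 4.65% of arm positions. All 10 windows of 30B and 8 of 10 at 34B were above every flanking window, against 1 of 11 at 62D.

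In Rif1- endocycling cells every locus had a larger excess than in wild type. It was 0.18 at 62D, 0.25 at 30B and 0.26 at 34B, or 1.14, 1.19 and 1.20 times the flanks. Higher values stood at 3.68%, 1.32% and 1.13% of arm positions. Above every flanking window were 9 of 11 windows at 62D, 6 of 10 at 30B and 8 of 10 at 34B, so fewer than in wild type at 30B. All 3 loci were over 0.1, which 12.8% of arm positions reached. This profile also varied more along the arms, with a median absolute deviation of the arm windows of 0.09, against 0.054 in wild-type endocycling cells. Divided by that deviation, the excess was 2.05 in Rif1- and 0.70 in wild type at 62D, 2.80 and 2.31 at 30B, and 2.90 and 2.23 at 34B.

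The windows with the highest ratio were not always centred on the genes. At 34B the highest was 8.61 kb to the right of the middle of Vm34Ca in both Rif1- and wild-type endocycling cells. At 30B it stood 34.2 kb to the right in Rif1- and 5.8 kb to the left in wild type. At 62D it stood 24 kb to the left in Rif1- and 16 kb to the right in wild type. The latter, at 0.080, is the first window past the 62D step described further on. In wild type the window 24 kb to the left was at 0.052. With windows of 100 kb, these offsets are all shorter than 1 window.

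In mitotic follicle cells no locus was over 0.1 in local excess. At 30B it was 0.09 in Rif1-, 0.051 in Rif1PP1, 0.099 in Rif1-/+ and 0.062 in wild type. At 34B it was 0.064, 0.066, 0.077 and 0.053 in the same order. At 62D it was 0.015 in Rif1-, 0.0035 in Rif1PP1, -0.042 in Rif1-/+ and -0.036 in wild type. The shares of arm positions over 0.1 were 2.28% in Rif1-, 3.25% in Rif1PP1, 12.6% in Rif1-/+ and 5.23% in wild type. With flanks of 300 kb, 30B reached 0.13 in Rif1-/+ and 0.11 in Rif1- mitotic cells.

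In wing discs, the tissue without eggshell synthesis, the local excess of 30B was 0.02 in Rif1-, 0.008 in Rif1PP1 and 0.073 in wild type. At 34B it was 0.02, -0.0071 and 0.024, and at 62D -0.0063, -0.012 and -0.054, in the same order. None was over 0.1, which 0.335%, 0.238% and 0.89% of arm positions were in Rif1-, Rif1PP1 and wild-type wing discs. In wild-type wing discs 2.84% of arm positions were higher than 30B, and all 10 of its windows were above every flank, as in wild-type endocycling cells. With flanks of 300 kb its excess there was 0.101, just over 0.1.

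**Figure D2:**
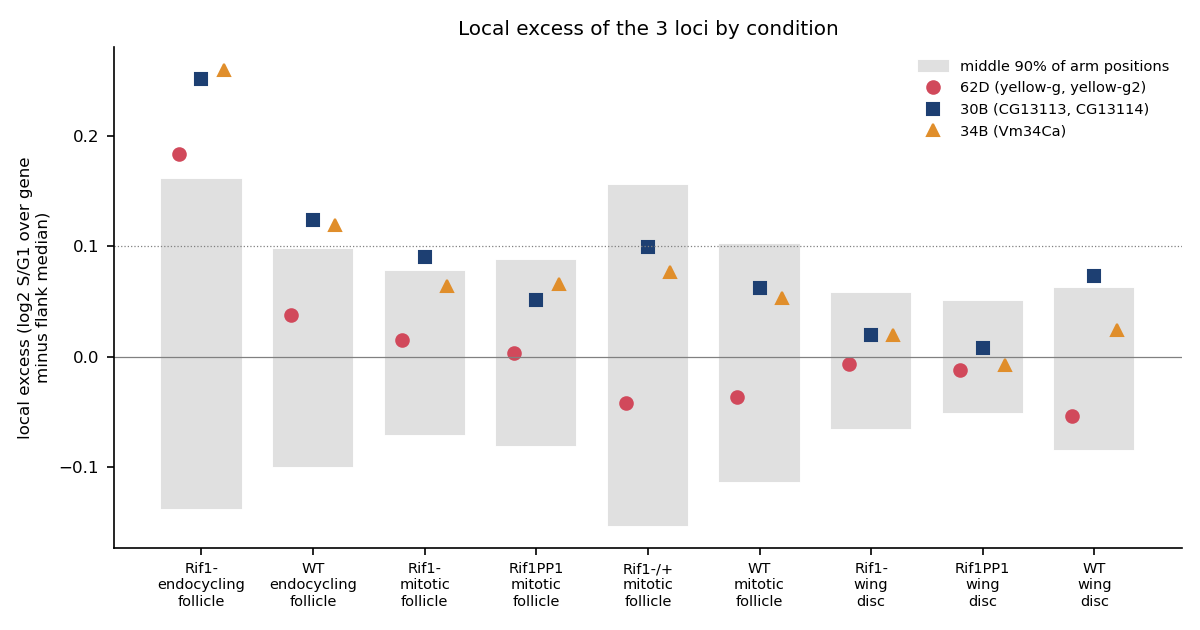
Local excess (log2 S/G1 over the genes minus the flank median) of 62D, 30B and 34B in each of the 9 conditions, 1 point per locus and condition mean, with grey bars for the middle 90% of arm positions and a dotted line at 0.1. The points of Rif1- endocycling cells, 0.18 to 0.26, stand above the grey bar, in wild-type endocycling cells 30B and 34B do, and 30B also does in Rif1- mitotic cells (0.09) and wild-type wing discs (0.073).

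Endocycling and mitotic cells were compared in wild type, which asks whether timing changes as follicle cells leave the mitotic cycle. The study compared the same fractions with replicate values and an adjusted p-value besides the 0.1 size threshold, and reported no window that differed. The window counts below rest on size alone. After quantile normalization of the 2 profiles, the change averaged 0.096 in log2 at 34B, 0.082 at 30B and 0.066 at 62D, endocycling over mitotic. The 31 windows were all higher in endocycling cells, between 0.036 and 0.12. Of them 5 of 31 were higher by over 0.1, all at 34B, and 0 were lower, against 1.44% of all 13391 windows higher and 1.84% lower. Greater changes stood at 0.829%, 1.33% and 2.98% of arm positions for 34B, 30B and 62D. Without normalization or with centring on the median, 1 of these windows was over 0.1.

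Measured as local excess, the 3 loci were higher in endocycling cells by nearly the same amount. The endocycling minus mitotic difference in wild type was 0.074 at 62D, 0.062 at 30B and 0.067 at 34B. Only 1.05%, 1.67% and 1.39% of arm positions had a greater difference. None was over 0.1, a size that 0.361% of arm positions exceeded upward and 0.238% downward. At 62D the difference came with an excess of 0.038 in endocycling and -0.036 in mitotic cells, so the locus was near its flanks in both.

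In Rif1- cells the endocycling minus mitotic difference in local excess was 0.17 for 62D, 0.16 for 30B and 0.20 for 34B. All 3 were over 0.1, as were 7.83% of arm positions, with 6.46% lower by over 0.1, and 1.67%, 2.08% and 0.864% of positions were greater. With all 9 profiles normalized together, the differences were 0.102, 0.069 and 0.12, so 30B was then below 0.1. The normalized change of the window values averaged 0.16 at 62D, 0.014 at 30B and 0.10 at 34B, but 0.078 at 30B and 0.17 at 34B with the deposited values and 0.086 and 0.18 with centring on the median. Higher by over 0.1 were 14 of 31 windows, 8 at 62D and 6 at 34B, and 1 at 30B was lower, beside 19.5% of all windows higher and 19.6% lower.

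The size of this gain was compared between the genotypes. Rif1- minus wild type, the differences of the endocycling gain were 0.095 at 62D, 0.10 at 30B and 0.13 at 34B. Larger values were found at 8.96%, 8.23% and 4.03% of arm positions. These differences depended on the scaling. With all 9 profiles normalized together they were 0.028 at 62D, 0.0011 at 30B and 0.054 at 34B. When each excess was divided by the median absolute deviation of its profile, the gain at 30B was 0.65 in Rif1- and 1.29 in wild type, so its direction turned, and at 34B the gains were 1.37 and 1.36. Without the windows at the 62D step described further on, the difference at 62D was 0.022. A test of this difference needs replicate values and was not possible on means.

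Set directly against wild-type endocycling cells, Rif1- endocycling cells had a local excess higher by 0.15 at 62D, 0.13 at 30B and 0.14 at 34B. All 3 differences were over 0.1, as were 12.2% of arm positions, with 10.3% lower by over 0.1, and 4.72%, 6.84% and 5.28% were greater than 62D, 30B and 34B. With all 9 profiles normalized together the differences were 0.086, 0.049 and 0.069. The normalized window change averaged 0.084, -0.011 and 0.032 at 62D, 30B and 34B. With the deposited values it was 0.025 at 30B and 0.089 at 34B, and with centring 0.051 and 0.12, so the sign at 30B turned. Of the 31 windows, 7 were higher by over 0.1, all at 62D, and 1 at 30B was lower, beside 24.4% of all windows higher and 26.5% lower. Those 7 are the windows of 62D that hold the 10-kb step described further on. In the 4 windows without it, the deposited values were 0.12, 0.098, 0.042 and -0.037 in Rif1- endocycling cells. In wild-type endocycling cells they were 0.080, 0.069, 0.060 and 0.053. This comparison and the Rif1- endocycling over mitotic comparison share the Rif1- endocycling profile.

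In mitotic follicle cells, the member windows of Rif1- were within 0.1 of wild type. The normalized change of Rif1- over wild type averaged -0.0041 at 62D, 0.059 at 30B and 0.044 at 34B, with 0 of 31 windows higher or lower by over 0.1, against 13.4% of all windows higher and 15% lower. For Rif1PP1 over wild type it averaged -0.0031, 0.014 and 0.074, with 1 of 31 windows higher, at 34B, and 0 lower, against 15.8% and 17.8%. For Rif1-/+ over wild type it averaged -0.052, 0.013 and 0.03, with 0 windows higher and 1 lower, at 62D, against 15.5% and 17.3%. These shares of all windows include pericentric heterochromatin, which holds no member window, and were not taken on the arms alone. The 3 comparisons share the wild-type mitotic profile. Differences of local excess in them ran between -0.011, for Rif1PP1 at 30B, and 0.051, for Rif1- at 62D.

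In wing discs, too, 0 of 31 windows were higher or lower by over 0.1, in Rif1- over wild type, where 2.79% of all windows were higher and 4.6% lower, and in Rif1PP1 over wild type, where 5.93% were higher and 6.62% lower. Mutant minus wild type, the local excess of 30B differed by -0.054 in Rif1- and -0.065 in Rif1PP1. At 62D it differed by 0.047 and 0.041, and at 34B by -0.0039 and -0.031. At 30B the mutants were thus lower and at 62D higher than wild type.

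Between the wild-type tissues, mitotic follicle cells and wing discs, 14 of 31 windows were higher in follicle cells by over 0.1 and 0 were lower, against 17.1% and 18.9% of all windows. Of these, 10 of 10 lay at 34B, where the mean change was 0.14, and 4 of 11 at 62D, where it was 0.077. The 4 at 62D are the windows that do not hold the 10-kb stretch of the step described next. At 30B the mean was -0.018. In local excess the tissues differed by 0.029 at 34B, 0.017 at 62D and -0.011 at 30B, so the higher level of 34B in follicle cells included its flanks.

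The profile at 62D contains a step. Windows that hold the 10 kb of 3L from 2230001 to 2240000, 29.9 kb left of yellow-g, were lower in most follicle cell profiles than the windows just beside them. In wild-type mitotic cells the value was -0.092 in the last window with this stretch and 0.00016 in the next one, and on entering it 0.018 against 0.11 in the window before. The step on leaving was 0.083 in wild-type endocycling, 0.051 in Rif1-, 0.065 in Rif1PP1 and 0.058 in Rif1-/+ mitotic cells. In Rif1- endocycling cells it was -0.016, and in wing discs it lay between -0.016 in wild type and 0.0032 in Rif1-. The stretch overlaps Oseg2, CG9018 and ACXD, and 7 of the 11 windows of 62D contain it.

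Without the windows that hold this stretch, an alternative chosen after seeing the data, the local excess at 62D was 0.13 in Rif1- and 0.065 in wild-type endocycling cells. It was 0.042 in Rif1- and -0.0038 in wild-type mitotic cells. The endocycling minus mitotic difference became 0.091 in Rif1- and 0.068 in wild type, so the wild-type difference was nearly as large as before and that of Rif1- was below 0.1. Rif1- minus wild-type endocycling cells became 0.068. The GC content of the window nearest to the middle of 62D was 45.7%, higher than at 30B (43.1%) and 34B (42.8%), with an arm median of 42.6%, and its part in the values was not tested.

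The chorion clusters were set beside the minor loci in the same measure. The ratio cannot tell earlier replication from more copies, so these values are not a measure of amplification. Local excess at 66D was 1.07 in Rif1- and 0.71 in wild-type endocycling cells and 0.30 in wild-type mitotic cells. At 7F it was 0.40, 0.28 and 0.13 in the same order. The wild-type endocycling gain was 0.42 at 66D and 0.15 at 7F, so the gain of 0.074 at 62D, the largest of the minor loci in wild type, was smaller than both. In Rif1- cells the gains were 0.46 at 66D and 0.17 at 7F, and those of the minor loci, 0.16 to 0.20, lay around that of 7F. The Rif1- gains of the minor loci depended on the scaling and were 0.069 to 0.12 with all 9 profiles normalized together. The chorion clusters were not recomputed in this way.

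**Figure D3:**
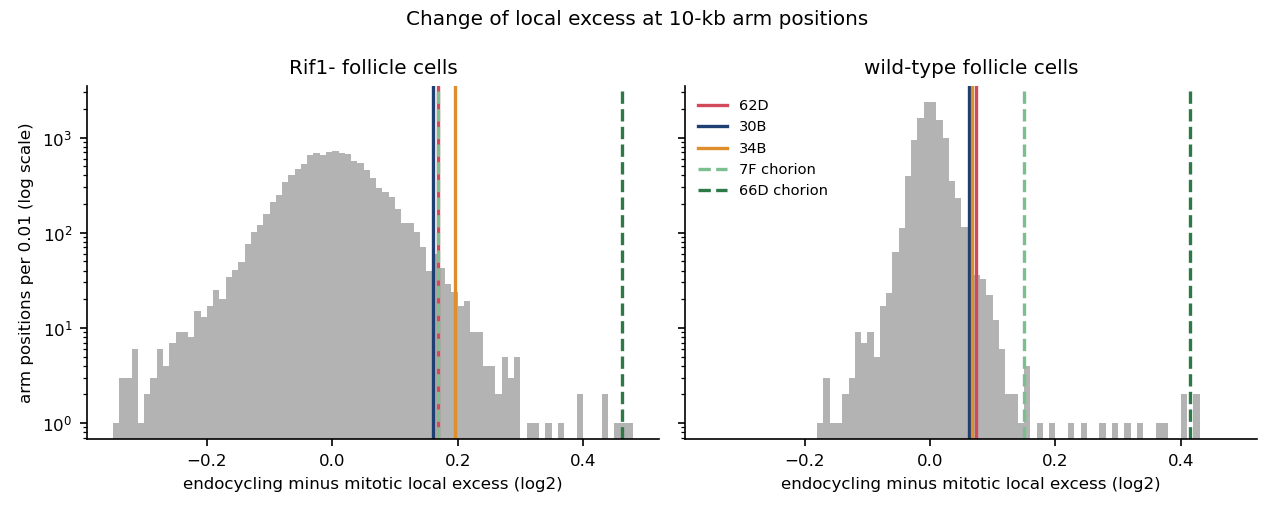
Number of 10-kb arm positions (log scale) by the endocycling minus mitotic difference of local excess in log2, in Rif1- (left) and wild-type (right) follicle cells, with vertical lines for the 3 minor loci and the 2 chorion clusters. The minor loci lie in the upper tail in both, at 0.16 to 0.20 in Rif1- and 0.062 to 0.074 in wild type, and the wild-type distribution is the narrower one.

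Other eggshell genes were set beside the members. Of the 23 genes on the eggshell list, all were found in the annotation, and 11 lie outside the 3 minor loci and the 2 chorion clusters. In wild type 0 of these 11 were over 0.1 in the endocycling minus mitotic local excess, nor were the members, and their median was 0.0033 with a highest value of 0.025, against 0.067 for Vm34Ca and 0.074 for yellow-g. In Rif1- cells 2 of 11 were over 0.1, Vm26Aa (0.104) and psd (0.106), both genes of the vitelline membrane in 1 cluster on 2L. In Rif1- cells 7.83% of arm positions were past this size. In Rif1- endocycling cells 5 of the 11 had a local excess over 0.1, against 12.8% of arm positions, namely psd, Vm26Aa, Vm26Ab and Vm26Ac of that cluster and dec-1, a chorion component gene on X. Femcoat, an eggshell gene also on X, was at -0.12. Eggshell genes of 1 cluster share windows and are not separate measurements.

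**Figure D4:**
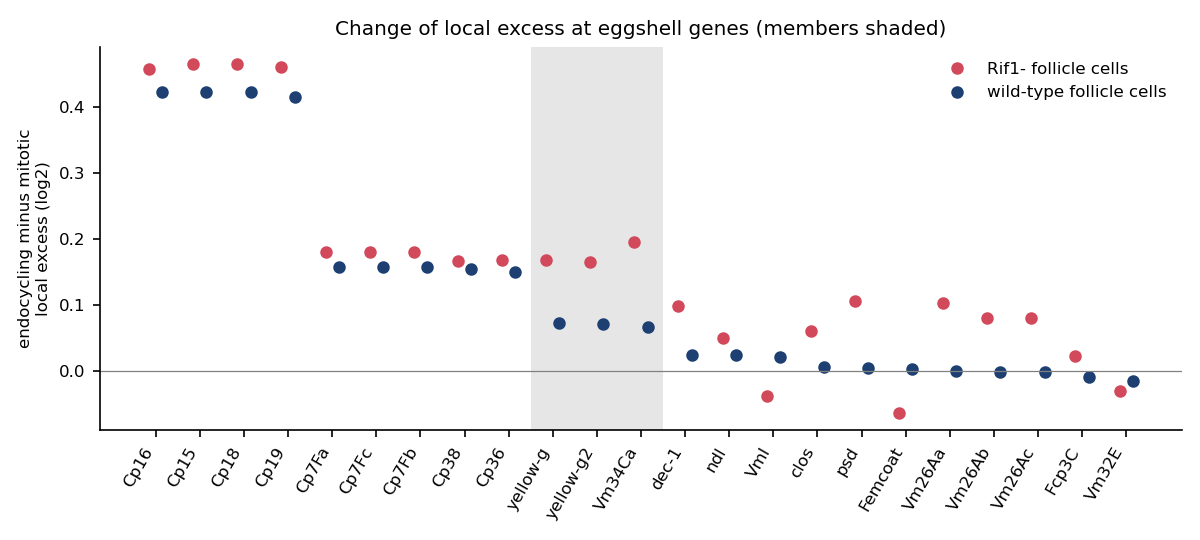
Endocycling minus mitotic difference of local excess (log2) for the 23 genes of the eggshell list, with Rif1- points to the left of wild-type points and the members yellow-g, yellow-g2 and Vm34Ca shaded. The chorion genes stand highest in wild type, the members lie between 0.067 and 0.074, and the 11 genes to their right lie at or below 0.025 in wild type.

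The other genes of the Yellow family were all below yellow-g and yellow-g2 in this wild-type difference. Of 15 listed genes 14 were found, 12 of them outside the loci, and 0 of 12 were over 0.1 in the wild-type endocycling minus mitotic local excess, as were 0 of the members, with a highest value of 0.019. In wild-type endocycling cells 4 of 12 had a local excess over 0.1, against 4.65% of arm positions: yellow-k (0.17), the neighbours yellow-f and yellow-f2 (0.12), enzymes of the melanin pathway, and yellow-c (0.11). The same 4 were over 0.1 in wild-type mitotic cells, against 5.23% of arm positions. In Rif1- cells 4 of 12 were over 0.1 in the endocycling minus mitotic local excess, yellow-f and yellow-f2 (0.19) and yellow-d and yellow-d2 (0.13), against 7.83% of arm positions. The cuticle pigmentation gene y was lower by over 0.1, at -0.14, as were 6.46% of arm positions. Neighbours such as yellow-f and yellow-f2, or yellow-d and yellow-d2, share all or nearly all windows and are not separate measurements. Among the 12, yellow-h lies on chromosome 4, outside the arm positions.

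An excess of the size seen at the minor loci was present elsewhere too. Arm positions at least as high as the locus in both Rif1- and wild-type endocycling cells numbered 76 of 11345 for 34B (0.67%), 78 for 30B (0.688%) and 281 for 62D (2.48%). Over 0.1 in both were 285 positions, which formed 42 runs along the arms. Of these runs 4 lay over or beside 30B, 34B, 66D and 7F, and 38 lay elsewhere. 62D lay in none of the runs.

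Over the 9 conditions, the local excess of 30B and 34B went together with Pearson's r of 0.97 and Spearman's rho of 0.88. For 62D with 34B they were 0.90 and 0.57, and for 62D with 30B 0.83 and 0.42. The 9 points are all relative to G1 of wing discs, and the Rif1- endocycling value is the highest at each locus, so the coefficients are descriptions only. Among 10281 other genes on the arms, the patterns most like 30B were those of Fdh (r 0.98), Tat (0.97) and dgt6 (0.97). Those most like 34B were CG31869 (0.98), Fdh (0.97) and Tat (0.97), and those most like 62D were Nos (0.96), Marc (0.95) and the noncoding gene lncRNA:CR44855 (0.95). Fdh had a local excess of 0.24 in Rif1- and 0.086 in wild-type endocycling cells, Tat 0.29 and 0.092, and CG31869 0.21 and 0.098. Each was below 30B and 34B in wild-type endocycling cells, but Tat was above both in Rif1- endocycling cells. In wild-type mitotic cells Fdh (0.07) and Tat (0.086) were above 30B (0.062) and 34B (0.053). CG31869 (0.057) was there above 34B only.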

How the data were processed

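S phase nuclei of 18 samples in 9 conditions were sorted after DAPI staining, and their DNA was sequenced. According to the submitters' notes, the authors aligned the reads to dm6 with Bowtie2 2.3.2 and filtered them with SAMtools 1.9. Reads with a mapping quality over 10 were counted in 100-kb windows at a 10-kb slide, set to equal depth and expressed relative to G1, and replicates were averaged. The deposited values are the authors' log2 S/G1 means, 1 for each window in a condition, with no quantile normalization applied. They carry no read numbers: the depth behind each value is unknown, and no interval was computed. Which G1 sample served the mutant wing discs is not clear from the labels.

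The chromosome lengths of the table equal those of release 6, whose RefSeq annotation gave the gene positions and whose sequence gave the upstream stretches and GC content. Changes are differences of 2 profiles after quantile normalization to each other, called past 0.1 in log2. Windows with no finite value in a condition (0 to 7 per condition, none over the members) were left out. Arm positions exclude pericentric heterochromatin, set as 2L from 22 Mb, 2R up to 5.7 Mb, 3L from 23 Mb, 3R up to 4.2 Mb and X from 22 Mb. Shares of all windows include it. Python 3.11.15, numpy 2.4.6, pandas 2.3.3, scipy 1.17.1 and matplotlib 3.10.9 were used. The code was checked on 2 simulated profiles of 13391 windows, both the wild-type endocycling profile with added noise. The mitotic profile did not enter this check. At 200 arm positions all overlapping windows of the first profile were raised by 0.4. The mean change was past 0.1 at 200 of 200 positions, with a shift well past the threshold.

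The members and gene lists were chosen with earlier results of these data known. Genes named are the 5 members, listed eggshell and Yellow family genes past 0.1, the chorion clusters, and the 3 genes per locus, 1 per 300 kb, whose local excess correlated best with that of the locus over the 9 conditions. The genes at the 62D step were named after their values were seen. Alternatives were the deposited values, centring on the median, joint normalization, removal of windows beyond 1, a threshold of 0.2, the nearest window only, flanks of 300 kb, the mean of the flanks, scaling by the median absolute deviation and all positions. RNA samples were not analysed here, nor was 1 sample whose labels conflict, and 0 columns of other series were met.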

Additional observations from a re-analysis of the deposited data

How the results depend on the processing

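The local excess of the 3 loci and its differences kept their side of 0.1 in most alternatives. Of 117 recomputed local excesses 111 did so and 6 passed 0.1, of 117 differences 110 did so and 7 were no longer past it, and no called value changed sign. Divided by the median absolute deviation, values have another unit and only their direction was compared. The direction of a single local excess cannot change under this division. Only differences could turn, and every difference over 0.1 kept its direction. The 7 that were lost all involve Rif1- endocycling cells. The remaining one beside those given above is 30B in Rif1- over wild-type endocycling cells, at 0.092 with the mean of the flanks.

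Counts of member windows past 0.1 depended on the scaling, and the cause was not tested. For endocycling over mitotic cells in wild type, 5 windows became 1 with the deposited values, 1 with centring on the median and 2 with joint normalization. For Rif1- endocycling over mitotic cells, 15 became 23 with centring on the median, and for Rif1- over wild-type endocycling cells 8 became 17. For Rif1PP1 over wild-type mitotic cells, 1 became 4 with centring and 0 with joint normalization. For Rif1-/+ over wild-type mitotic cells, 1 became 6 with the deposited values, 7 with centring and 0 with joint normalization. With a threshold of 0.2, 4 windows were left for Rif1- endocycling over mitotic cells and 0 for wild-type endocycling over mitotic cells, Rif1- over wild-type endocycling cells, Rif1PP1 and Rif1-/+ over wild-type mitotic cells and wild-type mitotic cells over wing discs. Mean window changes under 0.1 also moved with the scaling: with the deposited values 34B in Rif1- over wild-type mitotic cells was -0.00047 and 30B in wild-type mitotic cells over wing discs 0.0046, against 0.044 and -0.018. The percentages of arm positions above a locus kept within 1.5 times in 48 of 54 cases. With all positions they were 4.5% for 30B and 4.85% for 34B in wild-type endocycling cells and 5.3% for 30B in Rif1- mitotic cells. With the nearest window only they were 0.679% for 34B in Rif1- and 37.4% for 62D in wild-type endocycling cells and 10.1% for 34B in Rif1-/+ mitotic cells. All windows past 0.1 in wild-type endocycling over mitotic cells numbered 439, but 1037 with the deposited values, 1044 with centring and 162 with joint normalization. With joint normalization all windows past 0.1 numbered 2479 for Rif1- and 3927 for Rif1PP1 over wild-type wing discs, against 989 and 1681 with pairs. The number of loci over 0.1 in local excess became 1 with flanks of 300 kb, from 0, in wild-type wing discs, in Rif1-/+ and in Rif1- mitotic cells. It became 2 with the nearest window only in Rif1-/+ mitotic cells and 1 with joint normalization in Rif1- mitotic cells, from 0 each. With a threshold of 0.2 it became 0, from 2, in wild-type endocycling cells.

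No paired analysis was possible because the deposited columns are means of the replicates, and for the same reason no replicate was left out. Counts of member windows with the nearest window only were not run, since they are not defined for 31 windows. Windows of 100 kb are far wider than the genes, and neighbouring windows share most of their reads.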
